A study of Bos indicus and Bos taurus with 17 samples.

Results

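The genes described here were 10 members of the insulin, insulin-like growth factor (IGF) and mTOR signalling pathway: the receptors INSR and IGF1R, the receptor substrates IRS1 and IRS2, the IGF-binding proteins IGFBP3 and IGFBP5, the kinases AKT1, MTOR and RPS6KB1, and the mTOR inhibitor TSC1. They were chosen by name, for their part in the control of milk synthesis and of the survival of mammary epithelium by nutrients, insulin and IGF. No rule on their values was used, but earlier results of these data were known. All 10 were found among the 25121 named entries of a gene table with 61264 entries. RPS6KB1 had 2 entries, of which the higher was used, and each other member had 1. The RNA came from milk of Kashmiri cattle, a local dairy breed, and of Jersey cattle, sampled at day 15 in milk (D15, in March), day 90 (D90, in July) and day 250 (D250, in December). The labels list 17 samples, with breed and stage together making 6 groups of 3 samples, except Jersey D90, which had 2. Whether the deposited Jersey D90 values combine just those 2 libraries is not known. The labels give lactation numbers 2 and 3, and none was given a treatment according to the labels. By the study's methods the same cows of each breed were milked at all stages. The labels carry no animal number, and their lactation numbers differ between the stages of a breed, with 2 of 3 Kashmiri samples in lactation 3 at D15 and none at D90, so which samples share a cow is not known here. Stage and month of the year cannot be told apart in this design, and by the labels lactation number also differed between stages. The study's methods, unlike the labels, place all cows in lactation 3. The cells were captured from milk with beads carrying an antibody against cytokeratin 18, so they were those that milk sheds and the beads held, not the gland itself.

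Insulin and the IGFs bind the receptor tyrosine kinases INSR and IGF1R, which pass the signal to the docking proteins IRS1 and IRS2 and, through PI3 kinase, to AKT. AKT relieves the block that the TSC complex places on mTOR complex 1, the kinase that joins growth factor, amino acid and energy signals and that drives protein synthesis through S6 kinase and the 4E-binding proteins. In the bovine mammary gland this route is known for its part in milk protein synthesis, while IGFBP5 is known as a binding protein that rises when the gland involutes and that keeps IGF from its receptor.

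Expression was given as FPKM, a read level scaled for transcript length and for library size that can be set side by side between genes. The table held 1 value per group, already combined over the animals, so that no spread between animals, no error and no test can be given for any value below, and the depth behind each value is unknown. Whether neighbouring levels in an order differ by more than the animals do is therefore not known. A ratio was called 2-fold when the log2 ratio of FPKM + 1 was at least 1 in size and the gene reached 1 FPKM in either group. Adding 1 FPKM makes this ratio smaller than the fold of the FPKM values themselves in genes of low level. The summed FPKM of all entries ran from 533249 in Kashmiri D250 to 1023150 in Kashmiri D15, so each ratio was also taken after rescaling to that sum without the milk protein genes and after rescaling to the upper quartile. Rescaling to the sum moved the median log2 ratio over all genes most in comparisons with Kashmiri D250, from -0.04 to 0.81 for D250 over D15 in Kashmiri and from -0.11 to -0.75 for Jersey over Kashmiri at D250, where the upper quartile gave -0.53. Directions of the members that depend on this choice are named with their values.

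Of the 10 members, 7 stood at 1 FPKM or more in every group, IRS1 in all groups but Jersey D90, and IGFBP3 and IGFBP5 in none. The level of AKT1 was far above that of the other members. It exceeded the level of 94.3% to 96.5% of the genes above 0.01 FPKM in each group, whereas MTOR exceeded 54.3% to 63.2% and IRS2 73.8% to 87.3%. In the deposited scale the members also differed in how steady they were over the groups. The highest group value of TSC1 was 1.51 times its lowest, that of MTOR 1.56 times, that of RPS6KB1 1.97 times and that of AKT1 2.03 times, against a median of 3.49 times over the 8541 genes at 1 FPKM or more in every group. Only 2.76% of those genes had a narrower range than TSC1 and 3.58% a narrower range than MTOR. These ranges were not taken after rescaling, and rescaled to the sum MTOR was 2-fold higher in Kashmiri D250 than in Kashmiri D15. In contrast IGF1R spanned 8.34 times, a range wider than that of 82.1% of the genes, and IRS1 spanned 23.6 times.

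**Figure D1:**
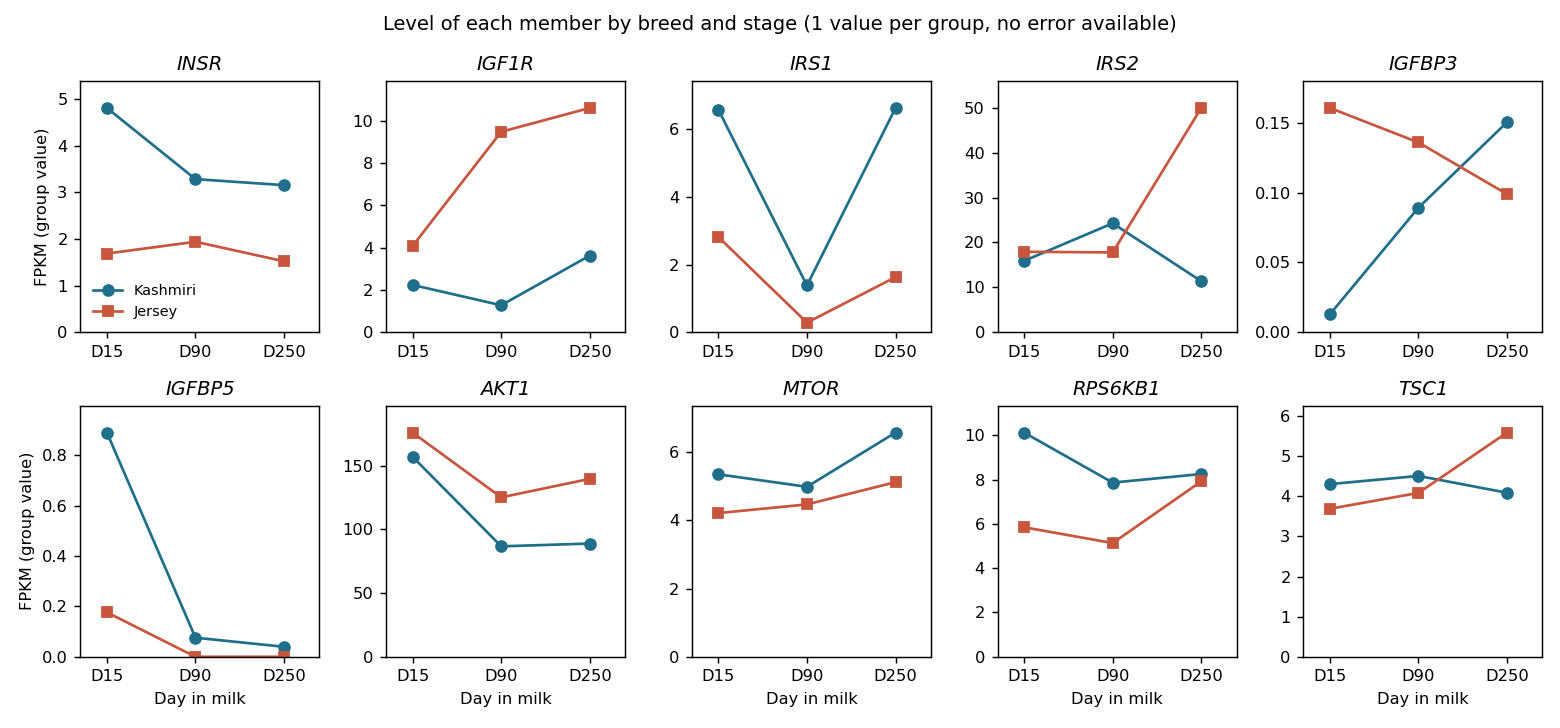
FPKM of each of the 10 members (y axis from 0, a separate scale for each gene) at D15, D90 and D250 (x axis), with circles for Kashmiri and squares for Jersey, each point being the only value of its group. IGF1R was higher and INSR and IRS1 lower in Jersey at each stage, IRS1 was lowest at D90 in both breeds, and IRS2 reached 50.02 FPKM in Jersey D250.

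The receptor of insulin and that of IGF1 differed between the breeds in opposite directions. INSR stood at 4.81, 3.28 and 3.15 FPKM in Kashmiri at D15, D90 and D250, and at 1.69, 1.94 and 1.52 FPKM in Jersey. All values of Kashmiri were thus above all values of Jersey, and the level in Jersey was 0.351, 0.591 and 0.482 times that in Kashmiri at the 3 stages. The log2 ratio was -1.11 at D15, past the 2-fold limit, -0.54 at D90 and -0.72 at D250, and it stayed below 0 at every stage under both rescalings. Rescaled to the sum, however, D15 was no longer 2-fold, at -0.79, and D250 became so, at -1.30, as it did with the upper quartile, at -1.07. Within a breed the level of INSR moved little, with log2 ratios between stages from -0.48 to 0.13. Of these, D250 over D15 in Kashmiri went from -0.48 to 0.33 when rescaled to the sum, and D250 over D90 in Kashmiri from -0.04 to 0.51, with 0.04 for the upper quartile.

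IGF1R, through which IGF1 acts on growth and survival, stood at 2.24, 1.27 and 3.63 FPKM in Kashmiri and at 4.09, 9.49 and 10.6 FPKM in Jersey. In the deposited scale each value of Jersey was above each value of Kashmiri, and the level in Jersey exceeded that in Kashmiri at the same stage by 1.83 times at D15, 7.45 times at D90 and 2.93 times at D250. The log2 ratio between the breeds was 0.65, 2.21 and 1.33. It remained above 0 under both rescalings at every stage, but at D250 it was then 0.69 or 0.90 and no longer 2-fold. Over the stages IGF1R was higher in Jersey D90 and D250 than in Jersey D15, by 2.32 and 2.60 times, while in Kashmiri its lowest value was at D90 and D250 stood 2.85 times above it. Between Jersey D90 and D250 the log2 ratio of 0.15 changed sign under both rescalings.

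Set against each other within a group, a ratio that no rescaling can alter, IGF1R was 0.465, 0.388 and 1.15 times INSR in Kashmiri at D15, D90 and D250. In Jersey it was 2.42, 4.90 and 6.99 times INSR. The ratio in Jersey was 5.21, 12.6 and 6.08 times that in Kashmiri at the same stage. The groups of Kashmiri at D15 and D90 were the only ones in which INSR was the higher of the 2 receptors.

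The receptor substrates did not move together. IRS1, the docking protein that links both receptors to PI3 kinase, stood at 6.58, 1.38 and 6.63 FPKM in Kashmiri and at 2.81, 0.281 and 1.63 FPKM in Jersey. Its D90 value was the lowest of its breed in both, at 0.210 times D15 in Kashmiri and 0.10 times D15 in Jersey, and D250 was 4.80 and 5.79 times D90. The log2 ratio of D90 over D15 was -1.67 in Kashmiri and -1.57 in Jersey. That of D250 over D90 was 1.68 and 1.04, the latter falling to 0.88 or 0.89 and out of the 2-fold limit after rescaling. D250 was back at the level of D15 in Kashmiri, with a log2 ratio of 0.01 that becomes 0.90 when rescaled to the sum, but not in Jersey, with -0.54. At each stage IRS1 was lower in Jersey, at 0.428, 0.203 and 0.245 times Kashmiri, and the log2 ratios of -0.99, -0.89 and -1.54 kept their sign under both rescalings.

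IRS2, the other widely expressed docking protein, stood at 15.9, 24.3 and 11.4 FPKM in Kashmiri and at 17.9, 17.8 and 50.02 FPKM in Jersey. It was the most abundant of the receptors and substrates in every group. Jersey D250 stood apart from the other 5 groups, at 2.79 times Jersey D15, 2.81 times Jersey D90 and 4.40 times Kashmiri D250. In Kashmiri D250 was the lowest stage, at 0.468 times D90. The log2 ratio of D250 over D90 was 1.44 in Jersey and -1.03 in Kashmiri. The Kashmiri value kept its sign but was no longer 2-fold after rescaling, at -0.94 for the upper quartile and -0.37 for the sum, while the Jersey value stayed past the limit, at 1.19 and 1.05. The ratio of D250 over D15 in Kashmiri changed sign on rescaling to the sum, from -0.45 to 0.49, and that of D90 over D15 in Jersey, at -0.01, became 0.24, or 0.13 with the upper quartile. At D15 and D90 the breeds lay close, with log2 ratios of 0.16 and -0.43.

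IRS2 exceeded IRS1 in all groups, yet by very different amounts. The ratio of IRS2 to IRS1 was 2.42, 17.6 and 1.71 in Kashmiri and 6.37, 63.3 and 30.7 in Jersey at D15, D90 and D250. The D90 ratio was the highest of its breed in both, and at each stage Jersey had the higher ratio, by 2.64, 3.60 and 17.9 times.

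**Figure D2:**
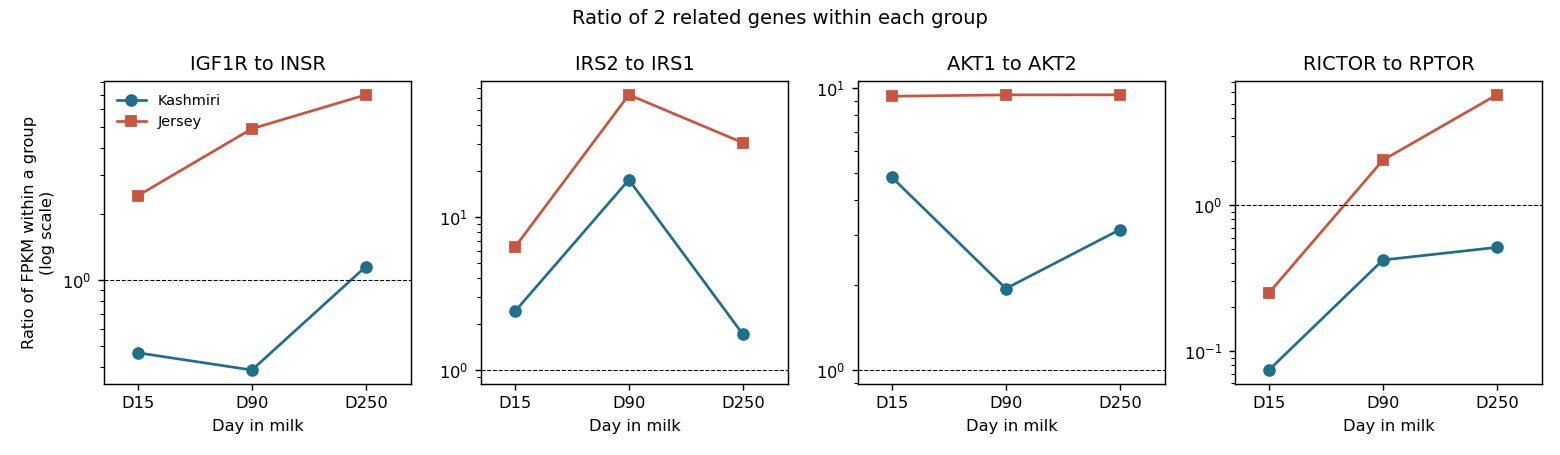
Ratio of the FPKM of 2 related genes within the same group (y axis, log scale, with its own range in each panel) at D15, D90 and D250 (x axis) in Kashmiri (circles) and Jersey (squares), with the dashed line at equal levels. Jersey lies above Kashmiri at every stage in all 4 panels, and IGF1R to INSR reaches 6.99 in Jersey D250 against 1.15 in Kashmiri D250.

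Both IGF-binding proteins were near the bottom of the measured range. IGFBP5 stood at 0.891, 0.0758 and 0.0397 FPKM in Kashmiri and at 0.177 FPKM in Jersey D15, and it was listed at 0 in Jersey D90 and D250. Within Kashmiri the D15 value was thus the highest. No fold is given against a value listed at 0, and no order read from it, since the table also lists the casein genes CSN1S1 and CSN2 at 0 in all groups but Jersey D90. IGFBP3, the main IGF carrier of blood, stood at 0.0128, 0.0891 and 0.150 FPKM in Kashmiri and at 0.161, 0.136 and 0.0988 FPKM in Jersey. Its log2 ratios with 1 FPKM added stayed within 0.20 of 0, and at such levels the order of the groups carries little weight.

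AKT1, the kinase downstream of PI3 kinase, stood at 157, 86.7 and 88.9 FPKM in Kashmiri and at 176, 125 and 140 FPKM in Jersey. D15 was the highest stage in both breeds, with log2 ratios of D90 over D15 of -0.85 in Kashmiri and -0.49 in Jersey, and none of the 9 comparisons reached 2-fold. For D250 over D15 in Kashmiri the log2 ratio of -0.81 became 0.19 when rescaled to the sum, and for D250 over D90 in Jersey that of 0.16 became -0.25, or -0.10 with the upper quartile. The level was higher in Jersey at each stage, by log2 ratios of 0.16, 0.52 and 0.65, of which the last became -0.12 when rescaled to the sum. AKT2, the isoform tied most closely to the action of insulin on glucose, stood at 32.6, 44.6 and 28.3 FPKM in Kashmiri and at 18.8, 13.2 and 14.8 FPKM in Jersey. The ratio of AKT1 to AKT2 was 4.82, 1.94 and 3.15 in Kashmiri, whereas in Jersey it was nearly the same at the 3 stages, at 9.35, 9.45 and 9.46. This pair and that of RICTOR to RPTOR were picked after their values had been seen.

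MTOR, RPS6KB1 and TSC1, the core of the mTOR branch, differed little between groups in the deposited scale. MTOR stood at 5.35, 4.98 and 6.57 FPKM in Kashmiri and at 4.21, 4.47 and 5.12 FPKM in Jersey. Its 9 log2 ratios lay between -0.31 and 0.34. RPS6KB1, the S6 kinase, stood at 10.1, 7.86 and 8.25 FPKM in Kashmiri and at 5.85, 5.13 and 7.92 FPKM in Jersey. It was lower in Jersey at each stage, by log2 ratios of -0.70, -0.53 and -0.05, and D90 was its lowest stage in both breeds. TSC1 stood at 4.30, 4.51 and 4.09 FPKM in Kashmiri and at 3.69, 4.09 and 5.59 FPKM in Jersey, with log2 ratios from -0.18 to 0.49. Differences this small depend on the scaling: rescaled to the sum, MTOR and TSC1 changed sign between the breeds at D15 and D90, TSC1 also at D250, RPS6KB1 for D90 over D15 in Jersey, and MTOR for D90 over D15 in Kashmiri and D250 over D90 in Jersey. For D250 over D15 in Kashmiri, RPS6KB1 went from -0.27 to 0.65 and TSC1 from -0.06 to 0.77, and for D250 over D90 TSC1 went from -0.11 to 0.47. Rescaled in this way, MTOR also became 2-fold higher in Kashmiri D250 than D15, at 1.13. With the upper quartile the sign changed for MTOR in its comparisons of D90 over D15 in Kashmiri and D250 over D90 in Jersey, and for TSC1 between the breeds at D250 and for D250 over D15 in Kashmiri. MTOR was 1.24, 1.11 and 1.61 times TSC1 in Kashmiri and 1.14, 1.09 and 0.916 times TSC1 in Jersey, so Jersey D250 was the only group with more TSC1 than MTOR.

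**Figure D3:**
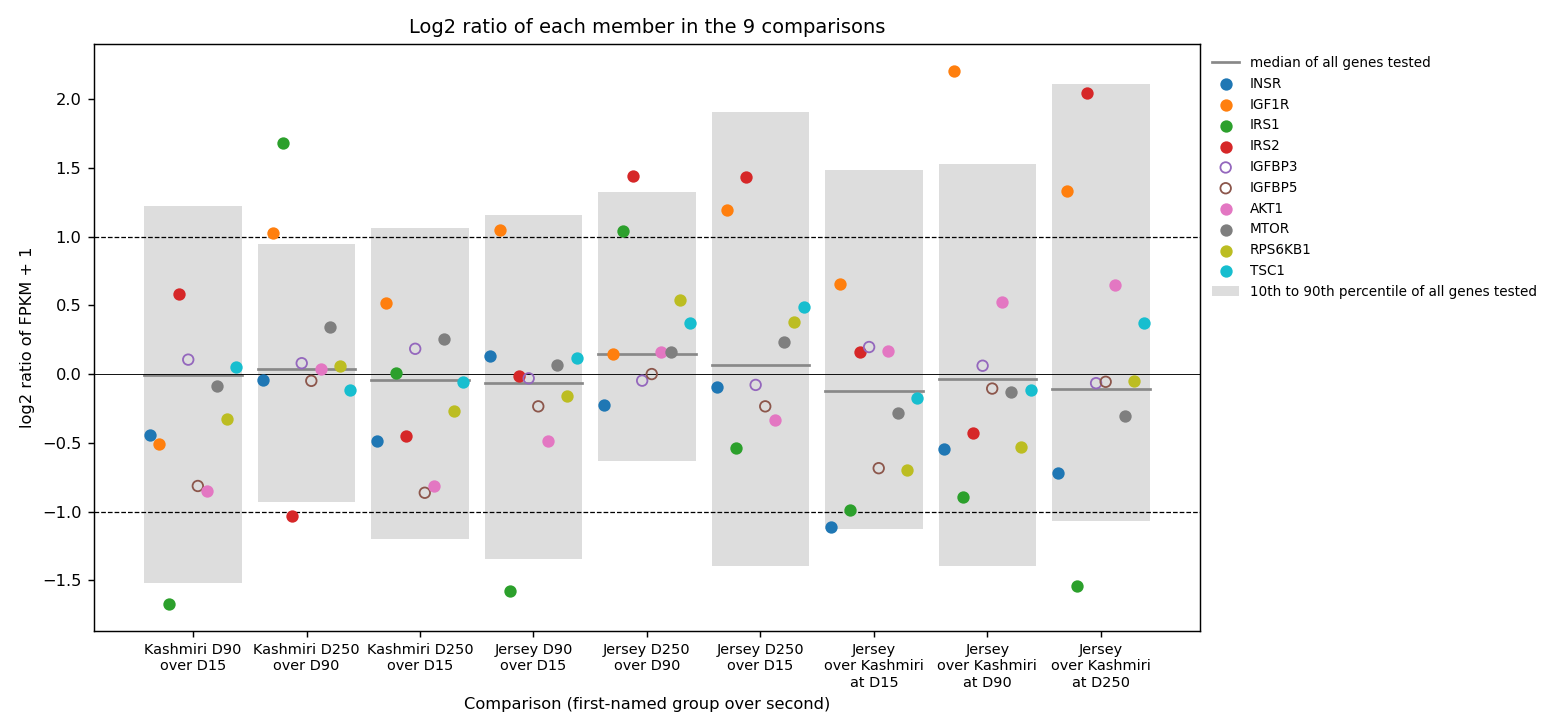
Log2 ratio of FPKM + 1 of each member (y axis) in the 9 comparisons (x axis), with open circles for members under 1 FPKM in both groups, grey bars from the 10th to the 90th percentile of all genes tested, a grey line at their median and dashed lines at 2-fold. IGF1R in Jersey over Kashmiri at D90, at 2.21, and IRS1 at D90 over D15, at -1.67 and -1.57, lie outside the grey bars, and most values lie inside them.

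Counted over the 8 members that reached 1 FPKM, the 9 comparisons gave 72 log2 ratios, of which 15 were 2-fold, all of them of IGF1R, IRS1, IRS2 or INSR. The comparisons share groups and are not independent. Between stages in Kashmiri, 1 of 8 members was 2-fold lower at D90 than D15, IRS1, and 33.4% of all genes tested were 2-fold apart either way. For D250 over D90 in Kashmiri, IGF1R and IRS1 were higher and IRS2 lower, 3 of 8, against 17.7% of all genes. For D250 over D15 none of the 8 was 2-fold apart, against 25.7%. In Jersey, IGF1R was higher and IRS1 lower at D90 than D15, 2 of 8, against 29.8%. IRS1 and IRS2 were higher at D250 than D90, against 20.6%, and IGF1R and IRS2 were higher at D250 than D15, against 42.3%. Between the breeds, INSR was lower in Jersey at D15, 1 of 8 against 28.7%, and IGF1R was higher at D90, 1 of 8 against 32.7%. At D250, IGF1R and IRS2 were higher and IRS1 lower in Jersey, 3 of 8 against 34.3%. With 8 genes these shares are coarse, and in the deposited scale the highest against its background was that of D250 over D90 in Kashmiri. Rescaled to the sum, that share was 2 of 8, where 3245 of 11807 genes were higher and 295 lower. The median log2 ratio of the 8 members ran from -0.38, for D90 over D15 in Kashmiri, to 0.31, for D250 over D15 in Jersey, where the medians of all genes were -0.00 and 0.07.

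The makeup of the cells differed between the groups, and in such bulk RNA fewer cells of a type and less RNA per cell cannot be told apart. Summed over the 13 of 14 listed epithelial markers that were found, the level was 6011, 739 and 2701 FPKM in Kashmiri and 2745, 104 and 1436 FPKM in Jersey. No marker of this list was at 0 in any group. D90 was the lowest stage in both breeds, with 12 of 13 markers 2-fold lower than at D15 in each, and 11 of 13 markers had their lowest value in Jersey D90. KRT18, the keratin used for the capture, stood at 51.3, 9.13 and 11.5 FPKM in Kashmiri and at 33.7, 1.59 and 4.51 FPKM in Jersey. The low D90 values of IRS1 in both breeds therefore came from the groups with the lowest epithelial marker levels, and the part of those levels in the result was not tested.

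Markers of white blood cells were present throughout and differed with the breed. The sum of the 9 of 12 neutrophil markers that were found was 205, 539 and 661 FPKM in Kashmiri and 5331, 6669 and 15475 FPKM in Jersey, with all 9 being 2-fold higher in Jersey at every stage. The 12 macrophage markers summed to 139, 543 and 557 FPKM in Kashmiri and to 1241, 2279 and 2006 FPKM in Jersey. Of these 12, 10 were 2-fold higher in Jersey at D15 and 10 at D90, while at D250 5 were higher and 2 lower. The sum of the T and NK cell markers went the other way, with 474, 1730 and 403 FPKM in Kashmiri and 329, 191 and 108 FPKM in Jersey over 12 genes. At D15 this held for few single markers, with 3 of 12 being 2-fold lower in Jersey and 1 higher, at a median log2 ratio of -0.30. At D90 10 were lower and at D250 9, with none higher. The 8 B cell markers summed to between 9.85 and 80.4 FPKM and the 5 of 8 red cell genes that were found to at most 1.05 FPKM. None of the white blood cell markers was listed at 0 in any group. The group with the highest neutrophil sum, Jersey D250, was in the deposited scale also that with the highest IGF1R, IRS2 and TSC1, and the 3 groups of Jersey held both the highest neutrophil sums and the highest IGF1R. The T and NK cell sum was highest in Kashmiri D90, the group with the highest IRS2 of its breed. The part of these cells in the values of the members was not tested.

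**Figure D4:**
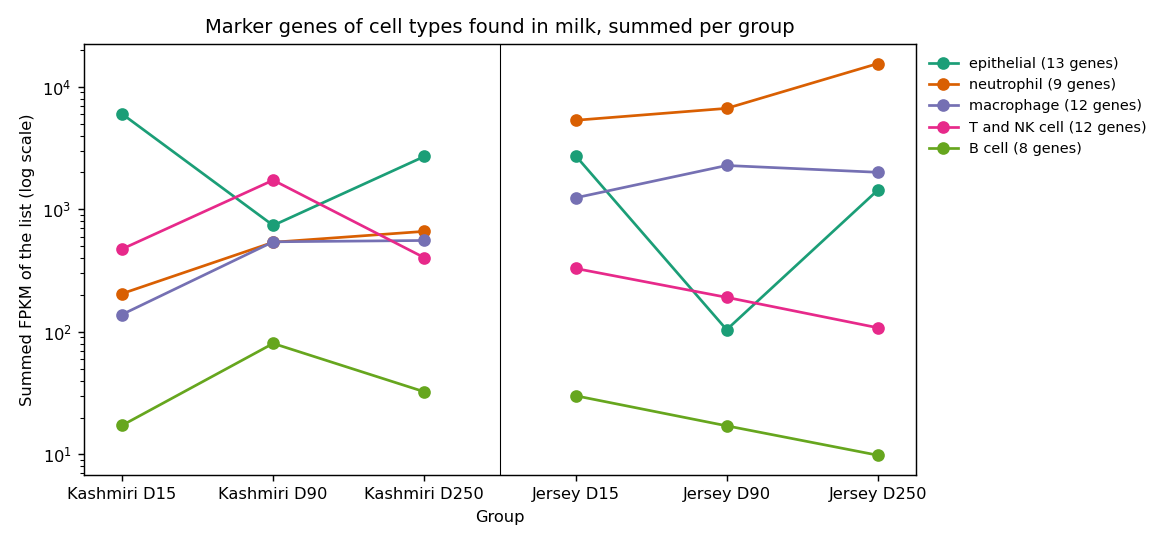
Summed FPKM of the markers of 5 cell types (y axis, log scale) in the 6 groups (x axis), with a line for each list within each breed and a vertical rule between Kashmiri and Jersey. The epithelial sum is lowest at D90 in both breeds, at 739 and 104 FPKM, and the neutrophil sum in Jersey lies between 5331 and 15475 FPKM, above all 3 groups of Kashmiri.

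Of a list of 94 other genes of the pathway, 88 had an entry and 78 reached 1 FPKM in some group. Of the ligands, INS was listed at 0 in every group, IGF2, in an entry joined with a microRNA, ran from 0.0368 to 0.281 FPKM, and IGF1 was not analysed here. For D90 over D15 in Kashmiri, 12 of 73 genes tested were 2-fold higher and 18 lower, with a median log2 ratio of -0.15, where 14.7% and 18.7% of all genes tested were higher and lower. For D250 over D90, 7 of 75 were higher and 6 lower, with a median of 0.18, against 8.94% and 8.73% of all genes. For D250 over D15, 11 of 74 were higher and 9 lower, with a median of -0.07, against 11.3% and 14.4%. In Jersey the counts were 15 higher and 9 lower of 75 for D90 over D15, with a median of -0.08, against 12.8% and 17% of all genes, and 16 higher and 2 lower of 74 for D250 over D90, with a median of 0.39, against 16.4% and 4.2%. For D250 over D15 in Jersey they were 25 higher and 8 lower of 74, also with a median of 0.39, against 24.3% of all genes tested higher and 18% lower. Between the breeds, Jersey was higher in 9 and lower in 15 of 71 genes at D15, higher in 16 and lower in 15 of 75 at D90, and higher in 21 and lower in 5 of 75 at D250, with medians of -0.17, 0.19 and 0.03. Of all genes, 15.9%, 16.9% and 22.6% were higher in Jersey at the 3 stages and 12.8%, 15.9% and 11.7% lower. These splits depend on the scaling. Rescaled to the sum, the Kashmiri splits became, in order, 16 and 14 of 73, 22 and 0 of 78, and 31 and 3 of 78. All genes moved too, to 2259 and 1476 of 10969, 3245 and 295 of 11807, and 4717 and 303 of 11824. In Jersey the splits became 17 and 6 of 76 for D90 over D15 and 8 and 3 of 74 for D250 over D90. Those of all genes were then 2017 and 1391 of 11148, and 1084 and 1053 of 10928. Between the breeds they became 13 and 7 of 69 at D15, 19 and 10 of 76 at D90 and 14 and 24 of 78 at D250. Those of all genes were then 2288 and 735 of 10864, 2543 and 1315 of 11189, and 1635 and 4519 of 12003. The upper quartile gave 11 and 5 of 74 for D250 over D15 in Kashmiri and 10 and 3 of 74 for D250 over D90 in Jersey. For the breeds at D250 it gave 14 and 15 of 76. All genes were then at 1981 and 1067 of 11620, 1257 and 703 of 10735, and 1897 and 3143 of 11707.

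**Figure D5:**
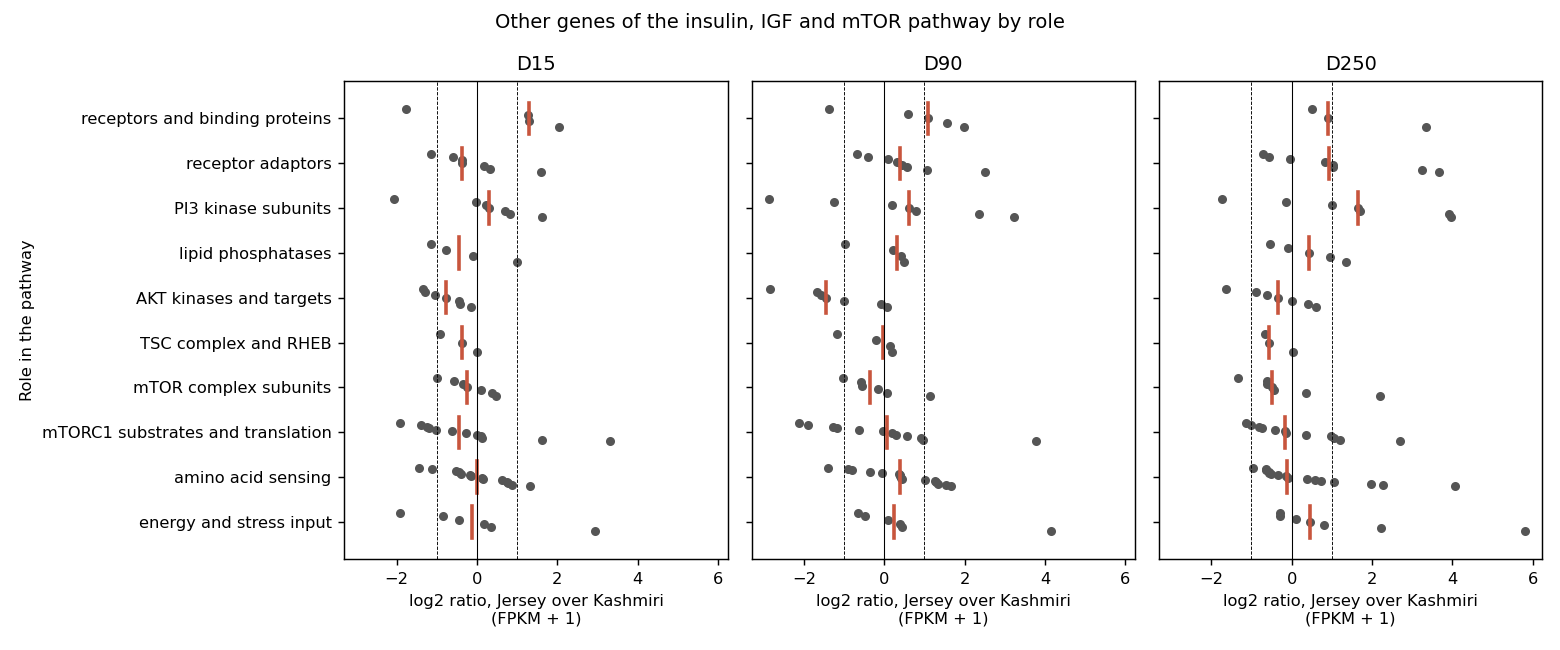
Log2 ratio of FPKM + 1 of Jersey over Kashmiri (x axis) for each of the other pathway genes tested (grey points) by role (y axis) at D15, D90 and D250, with a red bar at the median of each role and dashed lines at 2-fold. PI3 kinase subunits at D250 have a median of 1.66, which is 0.68 when rescaled to the sum, and the point farthest right in the D90 and D250 panels is DDIT4 of the energy and stress inputs.

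By role, the lists of receptor adaptors and of PI3 kinase genes held the genes most often higher in Jersey D250 than D15. Of 8 genes tested in the list of receptor adaptors, 5 were 2-fold higher and none was lower, with a median of 1.37. That list also holds genes that are not adaptors, and these 5 included the phosphatase PTPN1 and SOS1. Of 7 PI3 kinase genes 5 were higher and none lower, with a median of 1.61. Rescaled to the sum these counts were 4 and 5, again with none lower. Of all genes tested 24.3% were higher, and in the same comparison 7 of 9 neutrophil markers were 2-fold higher, with a median log2 ratio of 1.57. The part of those cells in the pathway genes was not tested. Between the breeds at D250 the median of the PI3 kinase genes was 1.66, and 0.68 when rescaled to the sum or 1.24 by the upper quartile. GRB2, the adaptor that couples receptors to RAS, stood at 222, 561 and 909 FPKM in Jersey and at 72.6, 98.4 and 70.1 FPKM in Kashmiri. SOS1, which GRB2 brings to the membrane, stood at 0.486, 3.08 and 3.64 FPKM in Kashmiri and at 0.493, 4.10 and 8.51 FPKM in Jersey, and the adaptor GAB1 at 4.53, 1.01 and 5.94 FPKM and at 2.67, 3.17 and 3.69 FPKM. PTPN1, the phosphatase that switches INSR off, stood at 41.7, 62.3 and 178 FPKM in Jersey and at 36.9, 58.9 and 17.9 FPKM in Kashmiri. Among the PI3 kinase genes, the leukocyte form PIK3CD stood at 8.21, 5.68 and 27.1 FPKM in Jersey. The PI3 kinase adaptor PIK3AP1, whose entry is joined with TM9SF3 so that neither can be read alone, stood at 65.9, 160 and 346 FPKM in Jersey against 36.8, 16.1 and 21.1 FPKM in Kashmiri. The regulatory subunit PIK3R1 went the other way. It stood at 35.6, 66.2 and 30.2 FPKM in Kashmiri and at 7.68, 8.21 and 8.41 FPKM in Jersey. INPP5D, a phosphatase found mainly in blood cells, stood at 13.8, 51.2 and 19.8 FPKM in Kashmiri and at 28.5, 25.6 and 52.2 FPKM in Jersey.

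Receptors and binding proteins other than the members held some of the widest contrasts. IGF2R, which takes up IGF2 for breakdown, stood at 27.6, 9.27 and 11.0 FPKM in Kashmiri and at 68.4, 29.1 and 121 FPKM in Jersey, and exceeded IGF1R in every group by 3.03 to 16.7 times. IGFBP7 stood at 23.5, 2.22 and 0.879 FPKM in Kashmiri and at 6.16, 0.235 and 0.326 FPKM in Jersey, so D15 was by far the highest stage in both breeds. IGFBP4 stood at 1.03, 4.11 and 1.02 FPKM in Kashmiri and at 7.35, 6.66 and 1.90 FPKM in Jersey. IGFBP6 stood at 0.58, 0.975 and 0.691 FPKM in Kashmiri and at 2.86, 6.75 and 2.14 FPKM in Jersey.

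Among AKT kinases and targets, 3 of 7 were 2-fold lower in Jersey at D15, 5 of 7 at D90 and 1 of 7 at D250, and none was higher, with medians of -0.76, -1.45 and -0.34, where 12.8%, 15.9% and 11.7% of all genes tested were lower. At D250 FOXO3 and PDPK1 stood at 21.7 and 8.60 FPKM in Jersey and at 13.9 and 6.24 FPKM in Kashmiri. Rescaled to the sum, 1 of 6, 4 of 7 and 3 of 7 were lower. Of all genes, 735 of 10864, 1315 of 11189 and 4519 of 12003 were then lower. With the upper quartile the counts of this role were 3, 5 and 3 of 7. Those of all genes were 1649 of 11060, 2058 of 11237 and 3143 of 11707. FOXO1, a transcription factor that AKT keeps out of the nucleus, stood at 8.81, 21.4 and 9.67 FPKM in Kashmiri and at 2.84, 2.1 and 2.42 FPKM in Jersey.

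Subunits of the mTOR complexes were mixed, as were the substrates. RICTOR, the defining subunit of mTOR complex 2, stood at 0.518, 1.61 and 2.07 FPKM in Kashmiri and at 1.10, 4.70 and 13.0 FPKM in Jersey, while RPTOR, that of mTOR complex 1, stood at 7.01, 3.82 and 4.02 FPKM and at 4.38, 2.30 and 2.27 FPKM. The ratio of RICTOR to RPTOR was 0.0740, 0.421 and 0.514 in Kashmiri and 0.250, 2.04 and 5.74 in Jersey, highest at D250 in both breeds. PRR5, another subunit of complex 2, stood at 74.6, 45.9 and 23.4 FPKM in Kashmiri and at 80.0, 22.2 and 16.4 FPKM in Jersey. AKT1S1, the mTOR complex 1 subunit PRAS40, stood at 27.4, 7.56 and 18.0 FPKM in Kashmiri and at 13.4, 4.70 and 6.47 FPKM in Jersey. The repressors of translation EIF4EBP1 and EIF4EBP2 had their lowest value at D90 in both breeds. EIF4EBP1 stood at 289, 87.6 and 239 FPKM in Kashmiri and at 186, 108 and 179 FPKM in Jersey. EIF4EBP2 stood at 93.2, 31.3 and 101 FPKM in Kashmiri and at 23.9, 12.3 and 49.4 FPKM in Jersey. EEF2K, the kinase that slows elongation, shared that order, with 29.9, 6.41 and 16.6 FPKM in Kashmiri and 12.5, 6.19 and 9.07 FPKM in Jersey. RPS6, the ribosomal protein that S6 kinase phosphorylates, stood at 3593, 1375 and 765 FPKM in Kashmiri and at 1361, 365 and 459 FPKM in Jersey.

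Stress and energy inputs to mTOR included the largest log2 ratio of FPKM + 1 between the breeds at D90 and at D250 within the pathway list. DDIT4, also called REDD1, which restrains mTOR complex 1 through the TSC complex, stood at 58.3, 52.1 and 59.3 FPKM in Kashmiri and at 453, 941 and 3376 FPKM in Jersey, higher by 7.78, 18.1 and 56.9 times. SGK1, a relative of AKT that mTOR complex 2 activates, stood at 18.3, 65.6 and 74.1 FPKM in Kashmiri and at 190, 906 and 489 FPKM in Jersey. SESN2, a leucine sensor that holds mTOR complex 1 back, stood at 3.29, 7.11 and 5.86 FPKM in Kashmiri and at 9.70, 22.7 and 114 FPKM in Jersey. SGK1 and SESN2 were listed under other roles. Of the energy and stress inputs tested, 1 of 6, 1 of 6 and 2 of 7 were 2-fold higher in Jersey, and 1 lower at D15. All 9 neutrophil markers were higher there at each stage, with median log2 ratios of 4.59, 3.90 and 4.80, against 2.94, 4.15 and 5.81 for DDIT4. The part of those cells in these values was not tested. In all, 6 of the 88 genes were 2-fold higher in Jersey at every stage, DDIT4, GRB2, IGF2R, PIK3R5 (in a joined entry), SESN2 and SGK1, and 4 were 2-fold lower at every stage, EIF4EBP2, FOXO1, PDCD4 (in a joined entry) and PIK3R1. These 6 stayed so under both rescalings, while EIF4EBP2 and PDCD4 left the lower group when rescaled to the sum. The groups then held 8 and 3 genes, and with the upper quartile 6 and 5, with RPS6 joining the lower group in both. How many of all genes meet this rule at every stage was not counted, so whether these counts are large is not known. Of the catalytic AMPK subunits, PRKAA2 stood at 6.83, 0.314 and 1.35 FPKM in Kashmiri and at 1.06, 0.0708 and 0.927 FPKM in Jersey, lowest at D90 in both, while PRKAA1 stood at 1.24, 4.96 and 3.79 FPKM in Kashmiri and at 1.84, 6.83 and 21.6 FPKM in Jersey. LAMTOR2, of the complex that brings mTOR to the lysosome, stood at 307, 106 and 161 FPKM in Kashmiri and at 335, 144 and 103 FPKM in Jersey.

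The genes whose pattern over the 6 groups was most like that of a member were sought among 4681 named genes at 1 FPKM or more in every group with an SD of at least 0.5 on the log2 scale. Over only 6 values many genes follow any given pattern, and the points share the scaling and the cell makeup described above, so the correlations are descriptions. IRS1 was followed most closely by BCKDHA, MECR and COQ9, 3 genes of mitochondrial metabolism, with Pearson's r of 0.993, 0.990 and 0.989, and 70 genes passed 0.95. IGF1R was followed by ZSWIM4, TBC1D9 and TEX2, at 0.998, 0.988 and 0.987, and 46 genes passed 0.95. For IRS2 the nearest were SPATC1, SELK and IP6K1, at 0.980, 0.976 and 0.976, and for INSR a joined entry of ADM2, RHOF and LSS, at 0.976, 0.969 and 0.968. AKT1 was nearest to MCRS1, MESDC1 and OAZ1, at 0.993, 0.983 and 0.976. TSC1 was nearest to G3BP2, GABARAPL1 and PIP5K1C, at 0.996, 0.989 and 0.987. For MTOR they were NAA20, EPM2AIP1 and DBT, at 0.975, 0.969 and 0.962, and for RPS6KB1 CALCOCO2, SMARCD2 and PIP4K2C, at 0.985, 0.975 and 0.974. The values of the binding proteins were too low for such a search to be read. Among the members themselves r was -0.77 for INSR with IGF1R and 0.85 for IRS2 with TSC1, the latter resting on Jersey D250, where both were highest.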

How the data were processed

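RNA of milk epithelial cells was extracted with Trizol, and libraries were made with a stranded mRNA kit. Per the study's methods, the authors trimmed the reads, aligned them with TopHat and Bowtie2 (version 2 in the submitters' processing notes) to the UMD3.1 assembly and estimated expression with Cufflinks and Cuffdiff. The deposited values are FPKM, 1 per entry and group, combined over samples by the authors. The table calls the Kashmiri columns Local. Per-library values and depths were not used here, since the table gives neither.

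Names were matched regardless of letter case, and where several entries carried a name the most abundant was kept, which left 21442 named genes. Log2 ratios used a pseudocount of 1 FPKM. Genes at 1 FPKM or more in either group were tested against a 2-fold limit by size alone, in 9 comparisons. No statistical test was possible. The calling step was tested on simulated data with changes well past the limit in genes of higher level. Their recovery was assured by that setting, so the test checks the code and not the calls given here. The members, the pathway list and the marker lists were chosen with earlier results of these data known. The text names all members, up to 3 highest and 3 lowest pathway genes of each comparison and the 3 genes nearest to a member in pattern. AKT2, RPTOR, RICTOR, GRB2, PIK3R5 and the pairs of genes beyond receptors and substrates were chosen after their values were seen. FOXO3, PDPK1 and the ligands are also named outside this rule. A pathway gene that this rule selects is not reported here. Alternatives changed the pseudocount, the scaling, the filter, the fold limit and the choice of entry. Python 3.11.15, pandas 2.3.3 and matplotlib 3.10.9 were used. No sequence is printed, since none of the reference tables used here holds one.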

Additional observations from a re-analysis of the deposited data

Results flagged for a closer look

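IRS2 was the only member that was 2-fold apart in opposite directions in the breeds under the same contrast. For D250 over D90 the log2 ratio was 1.44 in Jersey, from 17.8 to 50.02 FPKM, and -1.03 in Kashmiri, from 24.3 to 11.4 FPKM, a difference of 2.47. With 1 value per group this difference was not tested. Rescaled to the sum of all genes without the milk protein genes, the ratios were 1.05 and -0.37, and rescaled to the upper quartile 1.19 and -0.94. Neutrophil markers summed to 6669 FPKM in Jersey D90 and 15475 FPKM in Jersey D250, and T and NK cell markers to 1730 FPKM in Kashmiri D90 and 403 FPKM in Kashmiri D250. Their part in the result was not tested.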

How the results depend on the processing

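No paired analysis was possible because the table has 1 value per group and its columns carry no replicate number, and for the same reason no replicate could be left out. No log2 ratio of a member called 2-fold changed sign under the alternatives, and the other pathway genes were not checked in this way. Dropping the pseudocount cannot change a sign, and the only member with 2 entries was never called. Only the rescalings could thus have changed a sign. Over the single log2 ratios of the members, 299 of 355 alternative values stayed with the reported one and 56 moved, 33 of these on rescaling to the sum. With a 4-fold limit the count of members was 0 in the comparisons of Kashmiri D90 over D15 and D250 over D90, in the 3 Jersey comparisons and between the breeds at D15, and 1 at D250. The count of other pathway genes was then 4 of 73, 0 of 75 and 2 of 74 for D90 over D15, D250 over D90 and D250 over D15 in Kashmiri. It was 2 of 75, 3 of 74 and 14 of 74 in Jersey, and 4 of 71, 8 of 75 and 11 of 75 between the breeds at D15, D90 and D250. Of all genes tested, 260 were higher and 574 lower of 11215, 96 and 126 of 11341, and 211 and 248 of 11407 in Kashmiri. In Jersey they were 325 and 418 of 10996, 392 and 48 of 10866, and 1016 and 384 of 11225. Between the breeds they were 721 and 229 of 11125, 728 and 574 of 11122, and 1248 and 158 of 11549. Rescaled to the sum, the median of the members was 0.72 (D250 over D90) and 0.71 (D250 over D15) in Kashmiri, -0.073 for D250 over D90 in Jersey, and 0.087, 0.030 and -0.51 between the breeds. The counts of members were then 2 for D250 over D15 in Kashmiri, 1 for D250 over D90 in Jersey and 0 between the breeds at D15, and those of other pathway genes 22 (D250 over D90) and 34 (D250 over D15) in Kashmiri and 11 (D250 over D90) in Jersey. The counts of all genes rescaled in this way stand beside the pathway list above. Rescaled to the upper quartile, the median was 0.078 for D250 over D15 in Kashmiri and -0.27 between the breeds at D250. The count was then 1 of 8 members for D250 over D90 in Jersey and 2 of 8 between the breeds at D15. Of all genes, 1257 were higher and 703 lower of 10735 in the former, and 1630 and 1649 of 11060 in the latter. Without the filter on low values the median was -0.021 for D90 over D15 in Jersey and -0.054 between the breeds at D250. A pseudocount of 0.1 FPKM gave 2 of 8 members between the breeds at D15 and at D90. Of all genes, 2106 were then higher and 1994 lower of 11125 at D15, and 2204 and 2290 of 11122 at D90. Summing all entries of a name moved none of these values past the limits used. The depth behind each value is not known, so no limit from counting can be given, and values under 1 FPKM are the least certain.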
